A study of Homo sapiens with 6 samples.

Results

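The 8 human ephrin ligand genes, EFNA1 to EFNA5 and EFNB1 to EFNB3, were followed through an antisense knockdown of alpha satellite RNA (ALR) in embryonic stem cells. The family was chosen by the measured change of EFNB1, which among the 27 genes that passed the test upwards had the largest fold change. The change of EFNB1 is therefore given as a description, and the values of its relatives come from the same contrast. The 8 genes were found by symbol among the 53719 rows of the deposited count table. Of the 8, 7 had at least 1 count and 6 had enough counts to be among the 19721 genes tested. RNA came from H9, an established human embryonic stem cell line, grown in RSeT medium, which is sold for a naive-type pluripotent state. The knockdown group (3 libraries a, b and c, titled Sense3) received a gapmer against ALR, the transcript of centromeric repeats, and the control group (3 libraries a, b and c) received a control gapmer. Gapmers are antisense oligonucleotides with a DNA core that recruit RNase H to the paired RNA. All cells were harvested 48 h after transfection. The labels do not say whether the libraries of a group came from separate cultures, so p-values measure the spread between these libraries, which may be technical. The level of ALR itself was not analysed here.

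Ephrins are cell-surface proteins that bind Eph receptor tyrosine kinases on a neighbouring cell. Ephrin-A ligands (EFNA genes) are held in the membrane by a lipid anchor and mostly bind EphA receptors, whereas ephrin-B ligands (EFNB genes) cross the membrane, mostly bind EphB receptors and can signal back into their own cell. Contact between ligand and receptor commonly leads to repulsion, cell sorting and boundary formation. EFNB1, which is X-linked, is mutated in craniofrontonasal syndrome, and EFNB2 is best known for marking arterial endothelium.

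Values are given below in the order of libraries a, b and c of each group. CPM is a count relative to the library size after TMM scaling. The depth per library was 25087629 to 33698831 counts after ALR knockdown and 28834926 to 36576752 with the control gapmer. Knockdown library a stood apart in that 29678 rows had counts, against 25898 to 26788 in the other 5. The pluripotency genes POU5F1, NANOG, LIN28A and SALL4 had at least 2725 counts in every library, and the summed level of the 8 genes of that list was 5724 to 6338 CPM after knockdown and 5570 to 5648 in controls. The 10 naive-state genes summed to 175 to 188 against 176 to 178 CPM. Among them KLF17 was near 0, with 1 to 10 counts per library, while ZFP42 had 2564 to 3555 and made up most of the sum. The primed-state genes (7 of 8 with a row, THY1 at 0) summed to 354 to 367 against 378 to 400 CPM. The 6 neural genes summed to 361 to 406 against 306 to 359 CPM, most of it NES, with SOX1 at no more than 10 counts and NEUROD1 at 0. The 6 mesoderm genes summed to 14.3 to 16.2 against 11.7 to 14.1 CPM, with TBXT, MESP1 and HAND1 at no more than 9 counts. The endothelial genes (3 of 4 with a row) summed to 10.4 to 11.5 against 10.3 to 10.8 CPM, with CDH5 at 3 to 7 counts. The pluripotency, primed, neural and mesoderm sums did not overlap between groups, none of their genes passed the test, and their part in the ephrin values was not tested. In bulk RNA, fewer cells of a type and less RNA per cell cannot be told apart. A count of 0 in this table cannot be read as absence, because SOX2, a core pluripotency gene, was listed at 0 in all 6 libraries.

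EFNB1 (ENSG00000090776.5) encodes ephrin-B1, a transmembrane ligand of EphB receptors. In GENCODE 29 on GRCh38 it lies on the plus strand at chrX:68828997-68842147, spans 13.2 kb, and overlaps no other annotated gene. To show where each gene begins, the promoters of EFNB1, the member that passed the test, and EFNA5, the member with the largest difference the other way, are printed. Both are the 250 bases before the RefSeq gene start on GRCh38.p14, read 5′ to 3′ on the gene's strand, with the GC box letters GGGCGG (either strand, a motif bound by SP family factors) in capitals.
EFNB1, chrX:68828771-68829020, plus strand: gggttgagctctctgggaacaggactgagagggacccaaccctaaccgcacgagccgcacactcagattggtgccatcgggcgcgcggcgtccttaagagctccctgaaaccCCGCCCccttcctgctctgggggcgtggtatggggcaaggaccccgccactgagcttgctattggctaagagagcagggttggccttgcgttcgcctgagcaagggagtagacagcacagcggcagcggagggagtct
EFNA5, chr5:107670938-107671187, minus strand: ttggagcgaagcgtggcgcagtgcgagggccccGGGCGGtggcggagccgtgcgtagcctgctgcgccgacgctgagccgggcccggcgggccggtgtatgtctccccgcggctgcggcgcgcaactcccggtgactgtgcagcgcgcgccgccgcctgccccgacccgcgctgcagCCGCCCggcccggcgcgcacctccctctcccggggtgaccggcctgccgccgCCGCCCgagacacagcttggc
The EFNB1 window held 1 GC box, 2 CCAAT boxes (CCAAT, either strand) and 15 CG dinucleotides. The EFNA5 window held 3 GC boxes, 0 CCAAT boxes and 41 CG dinucleotides. Of the 35116 RefSeq windows of this length, 42.6% held a GC box and 32% a CCAAT box, and the median CG count was 11. Fewer CG were found in 98.3% of windows than in that of EFNA5, and in 57.1% than in that of EFNB1. Neither held the TATA box letters TATAAA (either strand), which 10.7% of windows held. Windows were given for 7 of the 8 genes, all but EFNB3. The RefSeq and GENCODE starts differ. The EFNB1 window ends at 68829020, past the GENCODE start at 68828997, and that of EFNA5 stops at 107670938, short of the GENCODE start at 107670895. A match to these letters describes the sequence and does not show a site in use.

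EFNB1 mRNA was low but separated the groups. The counts were 106, 118 and 101 after ALR knockdown, and 62, 55 and 62 with the control gapmer. On the CPM scale these were 3.74, 3.54 and 3.996 against 2.18, 1.77 and 1.71, so each knockdown library lay above each control. The means were 3.76 ± 0.231 and 1.89 ± 0.257 CPM (SD, n = 3 each), and the log2 fold change was 0.99 ± 0.19 (SE). The edgeR adjusted p over all tested genes was 0.0370, which is the value that chose the family. The last gene inside the threshold of 0.05 had an adjusted p of 0.0490 and the first outside it 0.0506. EFNB1 was the 1 ephrin gene of 6 tested that passed, where 0.786% of all tested genes passed in either direction and 0.137% passed upwards; nothing is read from this, as the rule used the contrast. The log2 fold change stayed between 0.93 and 1.12 when each library was left out. The call did not stay: the edgeR adjusted p was 0.0588 without knockdown library a, 0.0962 without b, 0.113 without control library a, 0.184 without b and 0.229 without c, and 0.0323 without knockdown library c. DESeq2 gave EFNB1 no adjusted p with its independent filter on mean count and 0.0253 without it.

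**Figure D1:**
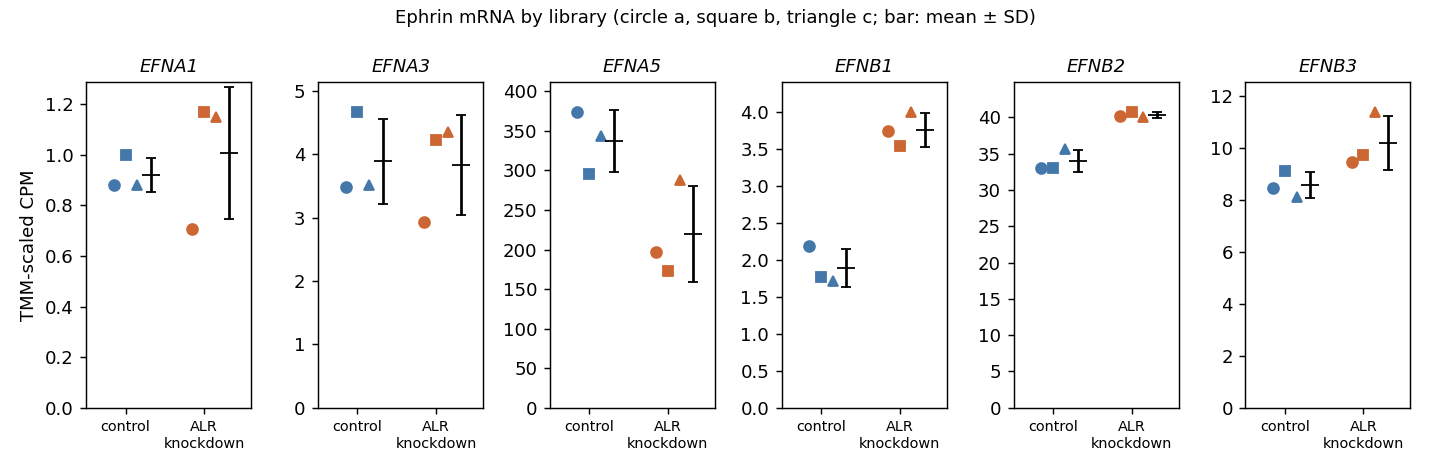
TMM-scaled CPM (vertical axes, each from 0) of the 6 tested ephrin genes in 3 control (blue) and 3 ALR knockdown (orange) libraries, with the group mean ± SD in black. The knockdown libraries lie above all controls for EFNB1, EFNB2 and EFNB3 and below them for EFNA5, while EFNA1 and EFNA3 overlap.

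The other ephrin-B ligands lay higher in knockdown libraries by smaller amounts that did not pass the test. EFNB2 (chr13:106489731-106535662, minus strand), the transmembrane ligand known from arteries and a preferred partner of EPHB4, had 40.2, 40.8 and 40.04 CPM after knockdown. With the control gapmer it had 33.1, 33.1 and 35.7 CPM. The groups did not overlap and the replicates were close, and the log2 fold change was 0.25 ± 0.07 (SE), which missed the threshold (edgeR adjusted p = 0.119). An antisense and a sense-intronic gene overlap EFNB2 in GENCODE 29, and since the strand setting of the counting is not given in the sources used here, their reads could be shared.

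EFNB3 (chr17:7705202-7711378, plus strand), an axon guidance ligand of the nervous system, had 9.48, 9.74 and 11.4 CPM after knockdown. Its control values were 8.48, 9.11 and 8.12 CPM. These groups were apart by a narrow margin, and the log2 fold change was 0.25 ± 0.11 (SE), short of the threshold (edgeR adjusted p = 0.351). The 95% interval of that change ran from 9.38e-05 to 0.50, and without knockdown library c the change was 0.15. All 3 ephrin-B genes were thus above the controls in every knockdown library, as were 1883 of all 19721 tested genes. The 1 of the 3 that passed the test, EFNB1, is the gene that chose the family. Upwards, 0.137% of all tested genes passed. Nothing is therefore read from EFNB1 in these counts.

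EFNA5 (ENSG00000184349.12, chr5:107376889-107670895, minus strand), which encodes ephrin-A5, a lipid-anchored ligand known from the mapping of retinal axons, was the most abundant ephrin mRNA. The counts were 5597, 5773 and 7274 after knockdown, and 10627, 9188 and 12455 with the control gapmer. As CPM these were 197, 173 and 288 against 374, 296 and 343. Every knockdown library lay below every control, but knockdown library c (288) came close to control library b (296). The means were 219 ± 60.5 and 338 ± 39.2 CPM (SD, n = 3 each). The log2 fold change of -0.62 ± 0.15 (SE) missed the threshold (edgeR adjusted p = 0.0896). Without knockdown library c the change was -0.89 ± 0.10 (SE) and passed (edgeR adjusted p = 0.000672), and without knockdown library b it was -0.48 ± 0.14 (edgeR adjusted p = 0.250).

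EFNA5 is also by far the longest of these genes, at 294 kb, whereas the other 7 span 5.8 to 45.9 kb. Length moved with the groups in these libraries. Among 1485 tested genes spanning at least 200 kb the median log2 fold change was -0.07, with 34 called lower and 1 higher, and among 14502 shorter genes it was 0.03, with 72 lower and 26 higher. With the dependence of log2 CPM on gene span taken out of every library, an alternative added after seeing the data, EFNA5 differed by -0.58 ± 0.13 (SE) and passed (edgeR adjusted p = 0.0402). That fit called 222 of 15987 genes, against 155 of 19721 in the main fit. EFNA5 also passed with no filter on low counts (edgeR adjusted p = 1.25e-11), a fit in which 1064 genes were called instead of 155.

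The remaining ephrin-A genes gave little signal. EFNA1, an inflammation-inducible ligand of EPHA2, had 0.705, 1.17 and 1.15 CPM after knockdown and 0.879, 0.998 and 0.881 CPM in controls, from 20 to 39 counts per library. Its groups overlapped (log2 fold change 0.13 ± 0.34, SE; edgeR adjusted p = 0.896), and a difference within its 95% interval, from -0.60 to 0.86, was not detectable at this depth. EFNA3, a lipid-anchored ligand of EphA receptors, had 2.93, 4.23 and 4.35 CPM against 3.48, 4.67 and 3.52, which also overlapped. Its log2 fold change was -0.02 ± 0.20 (SE; edgeR adjusted p = 0.976; 95% interval -0.46 to 0.41), and its sign turned under library-size scaling and when some single libraries were left out.

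EFNA2 had 0 counts in all 6 libraries and EFNA4 had 1 count, in control library a. A count of 0 allows up to 3 counts, which corresponds to 0.0820 to 0.120 CPM over these depths and covers counting error only. EFNA1 (chr1:155127460-155134857), EFNA3 (chr1:155078872-155087538) and EFNA4 (chr1:155063731-155069553) are neighbours on the plus strand of chromosome 1. In GENCODE 29, the gene AL691442.1, named EFNA4-EFNA3 in the gene name table, overlaps EFNA4 and EFNA3 on their strand. How reads in such an overlap were counted is not given in the sources used here, so the levels of EFNA3 and EFNA4 are uncertain.

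Per length of merged exons, the order of the ephrin mRNAs was EFNA5, EFNB2, EFNB3, EFNA3, EFNB1 and EFNA1. Over all 6 libraries the level ran from 30.3 to 65.6 CPM per kb for EFNA5, from 6.59 to 8.12 for EFNB2 and from 2.52 to 3.54 for EFNB3. It ran from 1.53 to 2.45 CPM per kb for EFNA3, from 0.515 to 1.21 for EFNB1 and from 0.278 to 0.460 for EFNA1. No adjacent pair in that order overlapped, so even after its change EFNB1 stayed the fifth of the 6.

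The mixture of ligand mRNAs differed between the groups. Summed over the 3 ephrin-B genes, the level was 12.1, 12.2 and 12.7 CPM per kb after knockdown, and 9.88, 9.95 and 10.1 in controls. The summed ephrin-A level, nearly all of it EFNA5, was 36.4, 33.0 and 53.2 CPM per kb against 67.8, 54.7 and 62.3. The total of all 8 genes overlapped between groups, since knockdown library c (65.9 CPM per kb) exceeded control library b (64.7). EFNA5 made up 67.1 to 76.6% of that total in knockdown and 80.2 to 84.4% in control libraries. EFNB1 made up 1.83 to 2.36% against 0.711 to 0.848%, and its share of the 3 ephrin-B genes was 8.74 to 9.48% against 5.08 to 6.66%. These shares restate the members' own values and carry no separate test.

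**Figure D2:**
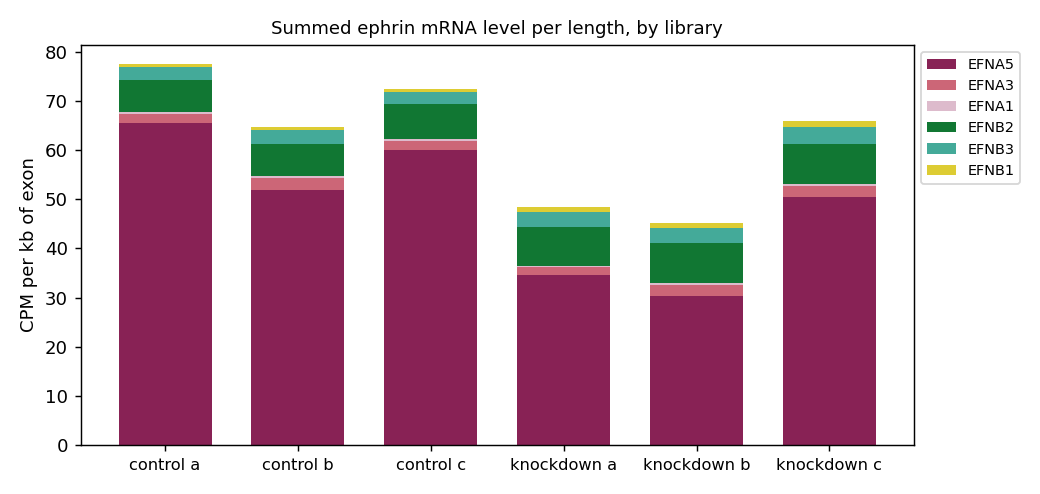
Stacked bars give the CPM per kb of exon of the 6 tested ephrin genes in each of the 6 libraries (vertical axis from 0). EFNA5 fills 67.1 to 84.4% of each bar, and the ephrin-B genes at the top (12.1 to 12.7 in knockdown, 9.88 to 10.1 in control) are the part that is taller in knockdown libraries.

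Around each gene, the nearest tested genes in RefSeq order were examined, and some of them are given here. Of these neighbours 0 passed the test, where 0.786% of all tested genes passed, so nothing is read from the 0. Beside EFNB1, PJA1 (a ubiquitin ligase gene, 319 kb away) had means of 30.0 and 24.3 CPM without overlap (log2 fold change 0.30 ± 0.07, SE; edgeR adjusted p = 0.0902). On the other side, the pseudogene SERBP1P1 (42.6 kb away) overlapped between groups (0.26 ± 0.14, SE). Beside EFNA5, FBXL17 (188 kb away), an F-box gene, lay lower in all knockdown libraries (-0.49 ± 0.13, SE; edgeR adjusted p = 0.101), and NUDT12 overlapped (0.04 ± 0.10, SE). Beside EFNB2, ARGLU1 lay lower (-0.13 ± 0.06, SE; edgeR adjusted p = 0.347), opposite to EFNB2 itself. Beside EFNA1, the sugar transporter gene SLC50A1, 0.475 kb away, lay higher in all knockdown libraries (0.39 ± 0.11, SE; edgeR adjusted p = 0.131). Of the 641 tested X-linked genes, EFNB1 included, 5 were called higher and 6 lower, which is 1.72% called in either direction and 0.780% upwards, against 0.786% and 0.137% over all tested genes. Their median log2 fold change was 0.04, against 0.02 over all tested genes.

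The genes whose pattern over the 6 libraries was most like that of EFNB1 were taken by Pearson correlation of log2 CPM among 15139 genes with a mean count of at least 50. Among the closest were ZNF648 (r = 0.993), ITFG3 (0.984), DAGLA (0.983) and ECE1 (0.983). Of these 4, ECE1 (log2 fold change 0.37, edgeR adjusted p = 0.0307) passed the test, where 0.786% of all tested genes passed. Nothing is read from this, as the genes were picked by likeness to EFNB1, itself chosen by its group difference. For EFNA5, added after its values were seen, the closest were CACNA2D3 (r = 0.999), TRPS1 (0.998), ANK2 (0.998), TBC1D5 (0.998) and ARID1B (0.997), with log2 fold changes of -0.52 to -0.34. These correlations describe the 6 libraries, which share the group difference and the scaling. Gene length also moved with the groups, and its part in the correlations was not tested.

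The receptors of these ligands were present at levels from near 0 to above most ephrins. Of 14 Eph receptor genes with a row, 13 were tested, and EPHB3 was listed at 0 in all libraries. None passed the edgeR test. Log2 fold changes were above 0 for 11 of 13, where 54.4% of all tested genes were, and 4 of 13 had an unadjusted p under 0.05, where 14.3% of all tested genes did. DESeq2 called 2 of the 10 receptors to which it gave an adjusted p, EPHB2 and EPHB6, in a fit that called 4.18% of 12355 genes. Without DESeq2's independent filter, an alternative added after seeing the data, it called 0 of 13 receptors and 1.01% of 32296 genes. Their median change was 0.12, against 0.02 over all tested genes. Groups did not overlap for 4 of the 13 receptors (EPHA1, EPHA10, EPHB2 and EPHB6, all higher), where this held for 18.9% of all tested genes. The same held for 4 of the 6 tested ephrins (EFNA5, EFNB1, EFNB2 and EFNB3). EFNB1 is among these because the family was chosen by its change in this contrast, so the ephrin count is a description only.

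EPHB2, a receptor of B ligands, was nearest to the threshold. It had 841, 971 and 776 counts after knockdown and 634, 757 and 854 with the control gapmer. The mean CPM was 29.8 against 23.4, with no overlap after scaling, and the log2 fold change was 0.35 ± 0.07 (SE; edgeR adjusted p = 0.0527). The gene passed under library-size and upper-quartile scaling, with a mean count of at least 50, with no filter, with the length trend removed and without knockdown library c. EPHB6, which lacks kinase activity, had 272, 364 and 256 counts against 221, 222 and 237, and its log2 fold change was 0.52 ± 0.12 (SE; edgeR adjusted p = 0.0707). EPHA1, an EphA receptor of epithelia, differed by 0.17 ± 0.07 (SE; edgeR adjusted p = 0.261), also without overlap. Genes on the opposite strand overlap EPHB2 and EPHA1 (for EPHA1, ZYX and EPHA1-AS1), and their reads could be shared.

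The most abundant receptors per length were not those with the largest differences. EPHB4, the partner of EFNB2, ran from 22.9 to 26.3 CPM per kb over all libraries, EPHA1 from 14.6 to 17.6 and EPHA7 from 11.4 to 13.4. For EPHB4 the log2 fold change was 0.05 ± 0.07 (SE; 95% interval -0.11 to 0.21). For EPHA7, an EphA receptor that binds EFNA5, it was -0.08 ± 0.07 (95% interval -0.23 to 0.07), and for EPHA4, which binds ligands of both classes, 0.12 ± 0.07 (-0.05 to 0.28). EPHA5, named after its values were seen, had 121 counts in knockdown library a and 24 to 67 in the other 5, and its groups overlapped.

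**Figure D3:**
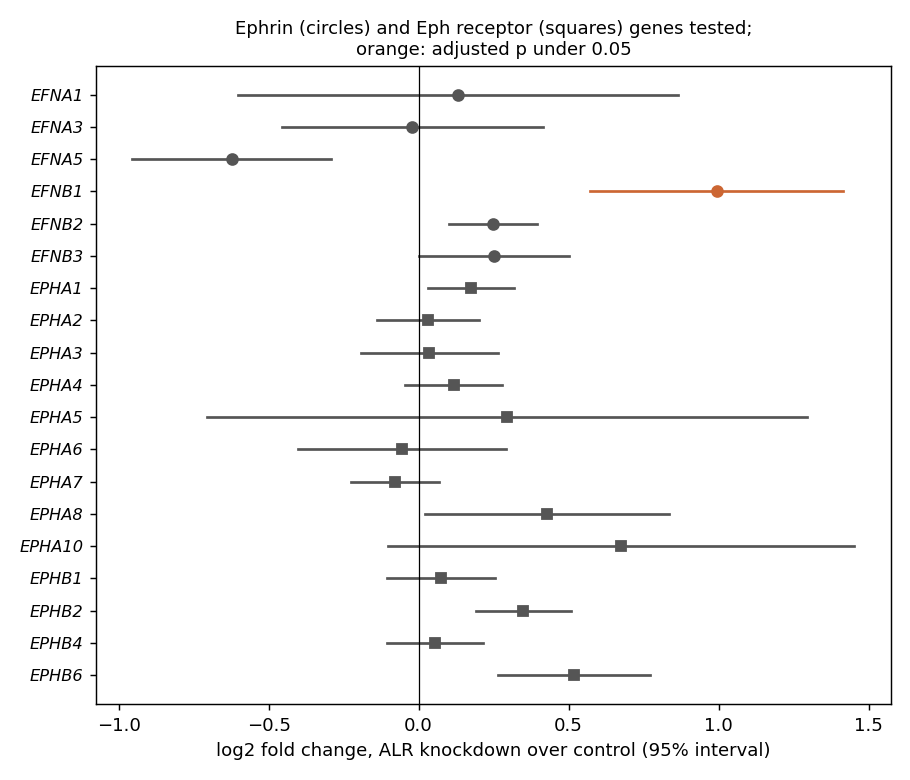
Log2 fold change of knockdown over control (horizontal axis) with its 95% interval for the 6 tested ephrin genes (circles) and 13 tested Eph receptor genes (squares). EFNB1 at 0.99 is the 1 gene past the threshold (orange), EFNA5 at -0.62 lies farthest below 0, and EPHB2 and EPHB6 are the receptors nearest to the threshold.

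Beyond the receptors, 60 genes of Eph and ephrin signalling with a row were taken as 3 lists. Of the 56 tested, 0 passed the edgeR test. An unadjusted p under 0.05 was found for 8 of the 56, about the same share as the 14.3% over all tested genes. DESeq2 called 1 of the 51 with an adjusted p, VAV3, against 4.18% of all genes in that fit. The median log2 fold change of the 32 forward-signalling genes, which act below Eph receptors, was -0.03. VAV3, an exchange factor recruited by Eph receptors, had 63.5 against 81.0 CPM (log2 fold change -0.35 ± 0.09, SE; edgeR adjusted p = 0.101) with no overlap. It spans at least 200 kb, and tested genes of that span had a median of -0.07, with 34 called lower and 1 higher. The part of length in the VAV3 value was not tested. The kinase gene LYN differed upwards, by 0.27 ± 0.09 (SE; edgeR adjusted p = 0.190). RHOA and AFDN (listed as MLLT4), the most abundant of the list by CPM, differed by -0.03 ± 0.07 each.

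Partners of the ephrin-B tail had a median change of 0.03 over 14 tested genes. PARD3, a polarity scaffold, had 348 against 431 CPM (log2 fold change -0.31 ± 0.11, SE; edgeR adjusted p = 0.247). GRIP1, a PDZ protein that binds ephrin-B, had 101 against 128 CPM (-0.35 ± 0.16, SE; edgeR adjusted p = 0.344), and for both genes the groups overlapped. Like VAV3, both span at least 200 kb, and the part of length in their values was not tested. STAT3 differed by 0.06 ± 0.07. Among 10 tested genes of ephrin shedding and cleavage the median was 0.08. The ephrin sheddase ADAM10 differed by 0.04 ± 0.06 (95% interval -0.09 to 0.17). FURIN (0.23 ± 0.09, SE; edgeR adjusted p = 0.272) and APH1A (0.17 ± 0.08, SE; edgeR adjusted p = 0.364) had the smallest p of that list.

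**Figure D4:**
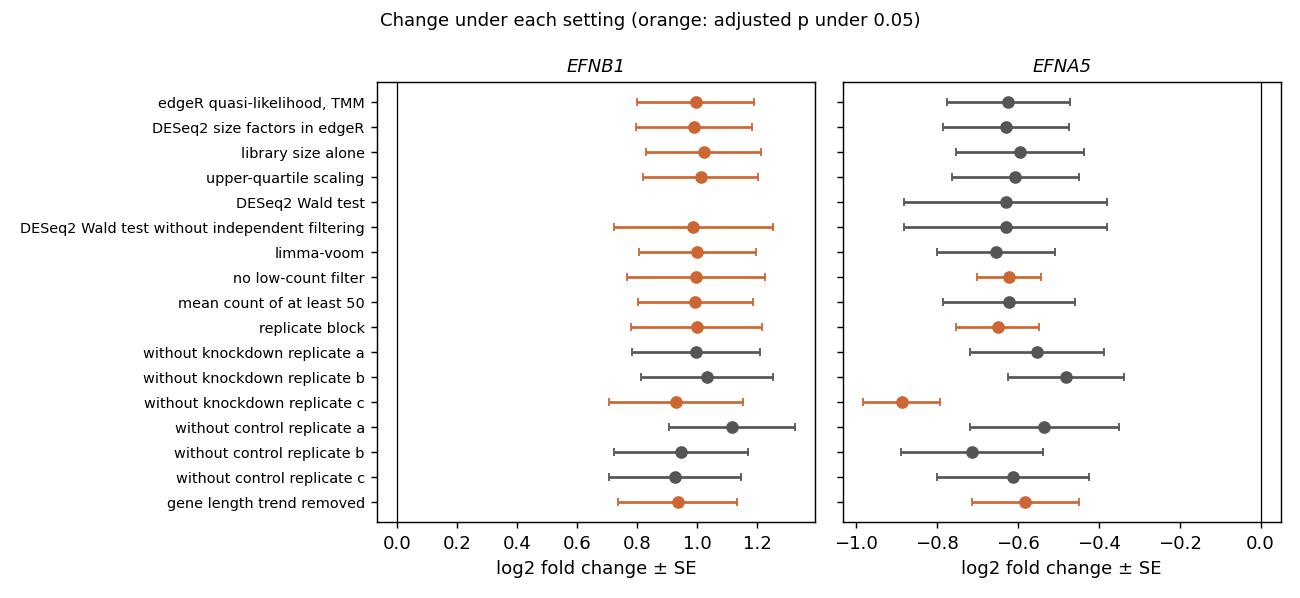
Log2 fold change ± SE (horizontal axes) of EFNB1 and EFNA5 under each setting (vertical axis), orange where the adjusted p was under 0.05. EFNB1 stays between 0.93 and 1.12 and EFNA5 between -0.89 and -0.48, while which settings pass differs for each gene, and DESeq2 gives EFNB1 no adjusted p unless its independent filter is off.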

How the data were processed

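RNA-seq was analysed in 3 ALR knockdown and 3 control libraries of H9 cells, grouped by the genotype label. The authors deposited raw read counts per gene symbol, whole numbers with no scaling apparent. Trimmomatic 0.39, STAR 2.7.8a, featureCounts, Subread 2.14.2 and the build hg38 are named per the submitters' processing notes. The annotation, strand setting and handling of multi-mapping or overlapping reads are not given in the sources used here. Per the labels' protocols, the library kit was directional.

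Differential expression was tested on the whole table with edgeR 4.0.16 in R 4.3.3: filterByExpr, TMM scaling, and the quasi-likelihood test with group as the only term. P-values were two-sided, Benjamini-Hochberg adjusted over 19721 genes, with a threshold of 0.05. Intervals are 95%. The members and lists were chosen with earlier results of these data known. Named were all ephrins, genes past the threshold, and in each list those with the highest mean CPM or smallest p. Symbols were matched to GENCODE 29 for coordinates and exon length (31459 rows by name, 1432 by another symbol). The procedure was tested on simulated counts. Alternatives were other scalings, filters and tests (DESeq2 1.42.0 with and, added after seeing the data, without independent filtering, limma 3.58.1 voom), a replicate block, each library left out, and removal of the gene length trend (natural spline, 5 degrees of freedom, 15987 genes), also added after seeing the data. Some genes that the naming rule selects are not reported here.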

Additional observations from a re-analysis of the deposited data

How the results depend on the processing

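EFNB1, EFNB2, EFNB3 and EFNA5 kept their direction in every alternative that gave a value. EFNB1 passed in 10 of 15 and EFNA5 in 4 of 16, while EFNB2 and EFNB3 passed in 0 of 16 each. EFNA1 ran from -0.000116 to 0.331 on the log2 scale when libraries were left out. EFNA3 was 0.00328 under library size alone and ran from -0.137 to 0.138 when libraries were left out. DESeq2 gave EFNB1 no adjusted p, since its mean count of 85.0 lay under the independent filter of 152, and so called 0 of 3 ephrins with an adjusted p. Without that filter, added after seeing the data, EFNB1 passed (adjusted p = 0.0253) and 1 ephrin, 0 receptors, 1 signalling gene and 327 genes in all were called. The number of ephrins called was 2 with no low-count filter, 2 with the length trend removed, and 0 to 2 over the fits that left out a library. Eph receptors called were 1 under library size alone, upper-quartile scaling, a mean count of at least 50 or the length trend removed. They were 2 under DESeq2 or with no filter, and 0 to 3 when libraries were left out. Signalling genes called were 1 under DESeq2, 4 with no filter and 0 to 7 when libraries were left out. Over all genes, 155 were called (27 higher), 516 by DESeq2, 1064 with no filter and 222 with the length trend removed. When libraries were left out, 26 to 1309 genes were called. The higher genes were 56 of 158 under library size alone and 45 of 157 under upper-quartile scaling. In each range of called genes, the highest count came without knockdown library c. Where counts differ, the cause was not tested.

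With the replicate block, 393 genes, 2 ephrins (EFNB1 and EFNA5), 1 receptor (EPHB2) and 1 signalling gene (VAV3) were called. Correlations of deviations from the group means between libraries of the same letter were 0.00175 for a, 0.111 for b and -0.0249 for c. Of the knockdown libraries, b correlated best with its own letter while a and c did not. The labels do not say whether libraries of the same letter were paired, and with so few libraries these correlations cannot decide it. EFNA2 and EFNA4 had too few counts to be tested, and the reason for their low counts was not tested. EFNA1 had 20 to 39 counts per library.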
